A study of Mus musculus with 3 samples.

Results

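The 10 genes described here encode proteins that neutrophils store in granules or hold in the cytosol: Camp, Ltf, Ngp, Lcn2, Mmp8, Mmp9, Retnlg, S100a8, S100a9 and Chil3. They were taken by symbol from the feature list of the matrices, which holds 19059 genes, and all 10 were found. The libraries are 3 samples of peripheral blood leukocytes from untreated male mice, aged 8, 9 and 10 weeks with 1 library at each age, deposited in a series about splenic macrophages after myocardial infarction. Red cells were lysed, cells were sorted on the nuclear dyes DAPI and Draq5, fixed and processed with a multiplexed probe-based kit of 10x Genomics, so the counts are of ligated probe pairs carrying a unique molecular identifier (UMI) and not of whole transcripts. Library number and age cannot be told apart, so no age was compared with another, and the labels give neither a strain nor a statement that each library is another animal. The p-values therefore measure the spread between these libraries, which may be technical.

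Granulocytes make their granule proteins in waves while they mature in the bone marrow. The enzymes of the azurophil granules, such as myeloperoxidase (Mpo) and neutrophil elastase (Elane), come first. The contents of the specific granules (cathelicidin, lactoferrin, neutrophilic granule protein) follow in myelocytes and metamyelocytes, and the gelatinase granules come last. Many of these genes are turned down in the mature cell that enters the blood, which carries the finished protein. S100a8 and S100a9 differ from them: the heterodimer calprotectin is a cytosolic protein that chelates zinc, manganese and calcium, and its messages persist in circulating neutrophils. Chil3 (Ym1) encodes a chitinase-like lectin made by myeloid progenitors, monocytes and some macrophages.

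The data bear on which of these messages remain in blood cells. The promoters of 9 of the 10 genes are in the RefSeq table for build GRCm38.p6, whose genome is given here for the sequences alone, since the build behind the counts is not stated. The 250 bases before the transcription start are printed for the 6 genes that carry most of the results: the calprotectin pair, whose counts went together from neutrophil to neutrophil, the 3 genes that marked rare cells (Camp, Ltf, Ngp), and Lcn2, found in part of the neutrophils. Capitals mark matches to TTGCNNAA, a form of the C/EBP motif, searched on both strands. C/EBP-epsilon is the factor known to drive the specific granule genes.
Camp, chr9:109849457-109849706, minus strand: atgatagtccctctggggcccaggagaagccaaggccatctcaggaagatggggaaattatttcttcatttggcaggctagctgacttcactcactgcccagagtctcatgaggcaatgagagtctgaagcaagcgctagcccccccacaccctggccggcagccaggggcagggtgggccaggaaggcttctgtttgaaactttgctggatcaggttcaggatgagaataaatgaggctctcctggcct
Ltf, chr9:111019042-111019291, plus strand: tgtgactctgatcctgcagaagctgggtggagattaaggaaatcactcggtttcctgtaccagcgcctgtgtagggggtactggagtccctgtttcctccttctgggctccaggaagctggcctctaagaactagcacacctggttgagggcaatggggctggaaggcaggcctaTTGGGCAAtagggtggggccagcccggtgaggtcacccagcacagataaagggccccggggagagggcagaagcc
Ngp, chr9:110419558-110419807, plus strand: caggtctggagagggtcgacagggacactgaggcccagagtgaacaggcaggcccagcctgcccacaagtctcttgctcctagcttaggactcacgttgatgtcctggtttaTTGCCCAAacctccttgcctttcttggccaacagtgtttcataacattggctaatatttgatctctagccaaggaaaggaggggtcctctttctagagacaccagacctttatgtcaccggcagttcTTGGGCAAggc
Lcn2, chr2:32387740-32387989, minus strand: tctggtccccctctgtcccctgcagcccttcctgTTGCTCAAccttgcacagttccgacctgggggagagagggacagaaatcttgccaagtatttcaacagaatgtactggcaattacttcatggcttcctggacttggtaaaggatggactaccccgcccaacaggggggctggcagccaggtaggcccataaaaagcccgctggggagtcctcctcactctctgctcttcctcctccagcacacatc
S100a8, chr3:90668821-90669070, plus strand: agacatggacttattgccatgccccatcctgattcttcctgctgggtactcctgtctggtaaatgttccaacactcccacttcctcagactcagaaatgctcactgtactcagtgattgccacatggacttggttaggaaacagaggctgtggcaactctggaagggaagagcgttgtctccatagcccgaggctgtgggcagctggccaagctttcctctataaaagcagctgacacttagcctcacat
S100a9, chr3:90695722-90695971, minus strand: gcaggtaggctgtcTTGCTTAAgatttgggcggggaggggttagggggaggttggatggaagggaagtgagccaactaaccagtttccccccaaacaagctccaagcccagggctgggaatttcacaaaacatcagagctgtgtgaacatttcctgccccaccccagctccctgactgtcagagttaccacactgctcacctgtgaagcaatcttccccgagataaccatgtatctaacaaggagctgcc
This motif matched the promoters of 6 of the 9 members (Ltf, Ngp, Lcn2, Mmp8, Retnlg and S100a9) and 9.56% of the 32851 promoters in the table. The match began 75 bases before the start in Ltf and 19 bases before it in Mmp8, and Ngp held a pair, 138 and 11 bases before the start. Camp, S100a8 and Chil3 held none. The looser form TTNNGNAA, which contains every match to the first, was in 8 of the 9 and in 36.8% of the promoters. AGGAAG, a form of the PU.1 motif, was in 6 of the 9 and in 29.5%, and TATAAA was in 1 of the 9, S100a8, and in 12.4%. The letters were chosen with these promoters in view, and a match describes a sequence and not a bound site.

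Neutrophils were taken as cells with 5 or more raw UMIs over Csf3r, Cxcr2, Mmp9 and Il1r2, the receptors for G-CSF, CXC chemokines and a decoy receptor for interleukin 1, with gelatinase B. This rule passed 2013, 586 and 578 cells in libraries 1, 2 and 3. It also took in other cells: 325, 117 and 112 of these cells passed the gate of another leukocyte class too, most often that of monocytes (283, 104 and 83). Of the cells passing both the neutrophil and the monocyte gate, 241, 94 and 67 had fewer than 20 S100a8 UMIs, and in those the median S100a8 count was 0 while the median count of Fn1, fibronectin, a gene of Ly6c-high monocytes, was 52, 60 and 33. Cells passing more than 1 leukocyte gate were therefore set aside, and the 1688, 469 and 466 cells passing the neutrophil gate alone are called neutrophils. Their summed level of 6 neutrophil markers outside the gate was 2900 to 3065 CPM (UMIs of a gene scaled to a constant total per class), against 328 to 408 CPM in monocytes and 4.13 to 6.51 CPM in B cells. None of those 6 markers was at 0 in neutrophils, which held for monocytes and B cells too. Cd177, 1 of the 6, lay the other way by CPM, at 110, 180 and 86.4 CPM in neutrophils and 225 ± 50.4 CPM in monocytes (SD, n = 3 libraries). A list of 6 monocyte markers summed to 1427 to 1817 CPM in neutrophils, against 16090 to 18110 CPM in monocytes. Most of the neutrophil sum was Lyz2, at 1621, 1507 and 1267 CPM. Lyz2, lysozyme, is also in the list of further specific granule genes used below. Of the neutrophils, 58, 28 and 20 had fewer than 20 S100a8 UMIs, and the part of such cells in the results was not tested. A list of 4 eosinophil markers summed to 83.8 to 122 CPM in neutrophils, with 1 of the 4 at 0, against 1.11 to 2.53 CPM in monocytes, and the part of eosinophils was not tested either. Monocytes, gated on Csf1r, Lrp1, F13a1, Fn1, Ace and Treml4, numbered 600, 155 and 168, and B cells 2928, 2715 and 4112.

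The libraries held 45718031, 19591648 and 23443660 UMIs, and 10337, 4935 and 6495 cells were analysed. Library pairs shared 83, 101 and 48 cell barcodes. Haemoglobin and other red cell messages differed widely between libraries, from 311 to 9372 CPM summed over 5 genes in neutrophils, and their part in the results below was not tested. Levels are compared for 1 gene between cells and never between genes, because probes differ in efficiency and the counts carry no length scale.

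S100a8 and S100a9, the calprotectin subunits, were, with the gate gene Mmp9, the members seen in nearly every neutrophil. S100a8 stood at 56284, 55455 and 57438 CPM in neutrophils of the 3 libraries, against 51.8, 33.5 and 35.6 CPM in monocytes and 73.3, 88.0 and 45.4 CPM in B cells. A neutrophil held on average 160, 154 and 153 raw S100a8 UMIs. S100a9 stood at 56006, 58811 and 57916 CPM in neutrophils, against 66.7, 41.9 and 57.9 CPM in monocytes and 100.4, 167 and 117 CPM in B cells. For each gene the 3 neutrophil values lay close together, and no monocyte or B cell value came near them. Together the pair made up 11.2%, 11.4% and 11.5% of all neutrophil UMIs, and the 10 genes 12.3%, 12.9% and 12.5%.

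Mmp9 encodes gelatinase B, the protease that gives gelatinase granules their name, and it was part of the gate. It stood at 4533, 4102 and 4565 CPM in neutrophils, against 1.69, 1.05 and 2.23 CPM in monocytes. When the gate was built without Mmp9, from the other 3 genes, the neutrophil values were 4533, 4099 and 4565 CPM, so the gate's use of the gene left its level nearly where it was. Mmp8, the neutrophil collagenase of specific granules, stood at 907, 840 and 711 CPM in neutrophils, against 60.8, 104 and 55.7 CPM in monocytes and 2.04, 1.96 and 1.03 CPM in B cells. The 3 classes did not overlap for Mmp8, and monocytes lay between neutrophils and B cells in every library. The monocyte level depends on the cells set aside: when cells of 2 gates went to the larger gate, an alternative chosen after seeing the data, it was 124 ± 19.8 CPM (SD, n = 3 libraries).

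Lcn2 encodes lipocalin 2, which starves bacteria of iron by binding their siderophores. It stood at 1310, 1733 and 1224 CPM in neutrophils, against 1.97, 4.19 and 3.34 CPM in monocytes. Without 1 cell of library 2, described below, the neutrophil value of that library was 1315 CPM and the 3 libraries lay close together. Retnlg, a resistin-like secreted protein, stood at 3839, 6437 and 3607 CPM in neutrophils, against 5.07, 8.37 and 5.57 CPM in monocytes. Library 2 had the highest neutrophil level of Retnlg, and the same held without that cell (6511 CPM).

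Camp encodes the precursor of the cathelicidin peptide, Ltf lactoferrin, an iron-binding protein, and Ngp a cystatin-like protein of the specific granule. Camp stood at 17.5, 597 and 5.65 CPM in neutrophils, against 3.66, 3.14 and 0 CPM in monocytes and 4.18, 12.7 and 3.52 CPM in B cells. Ltf stood at 18.8, 412 and 4.85 CPM in neutrophils, against 1.13, 2.09 and 1.11 CPM in monocytes. Ngp stood at 49.0, 777 and 17.8 CPM in neutrophils, against 4.78, 1.05 and 5.57 CPM in monocytes. Neutrophils were above monocytes in each library for the 3 genes, and the value of library 2 was far above those of the other libraries. A single neutrophil of library 2 held 89.8% of the Camp, Ltf and Ngp UMIs of that library's 469 neutrophils. Without it, library 2 stood at 29.6 CPM for Camp, 41.3 CPM for Ltf and 114 CPM for Ngp.

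Chil3 had the opposite placement. It stood at 9.17, 100.0 and 4.04 CPM in neutrophils, against 819, 1410 and 1238 CPM in monocytes and 1.75, 4.24 and 1.39 CPM in B cells. Without the same neutrophil of library 2, its value there was 11.7 CPM. The 2 classes did not overlap, and every monocyte value was above every neutrophil value. Most Chil3 UMIs lay outside both classes: the cells set aside for passing several gates held 61.7% of them, against 36.1% in monocytes. With cells of 2 gates given to the larger gate, an alternative chosen after seeing the data, Chil3 stood at 1698 ± 273 CPM in monocytes (SD, n = 3 libraries). It stood at 42.9 ± 49.2 CPM in neutrophils under that alternative.

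**Figure D1:**
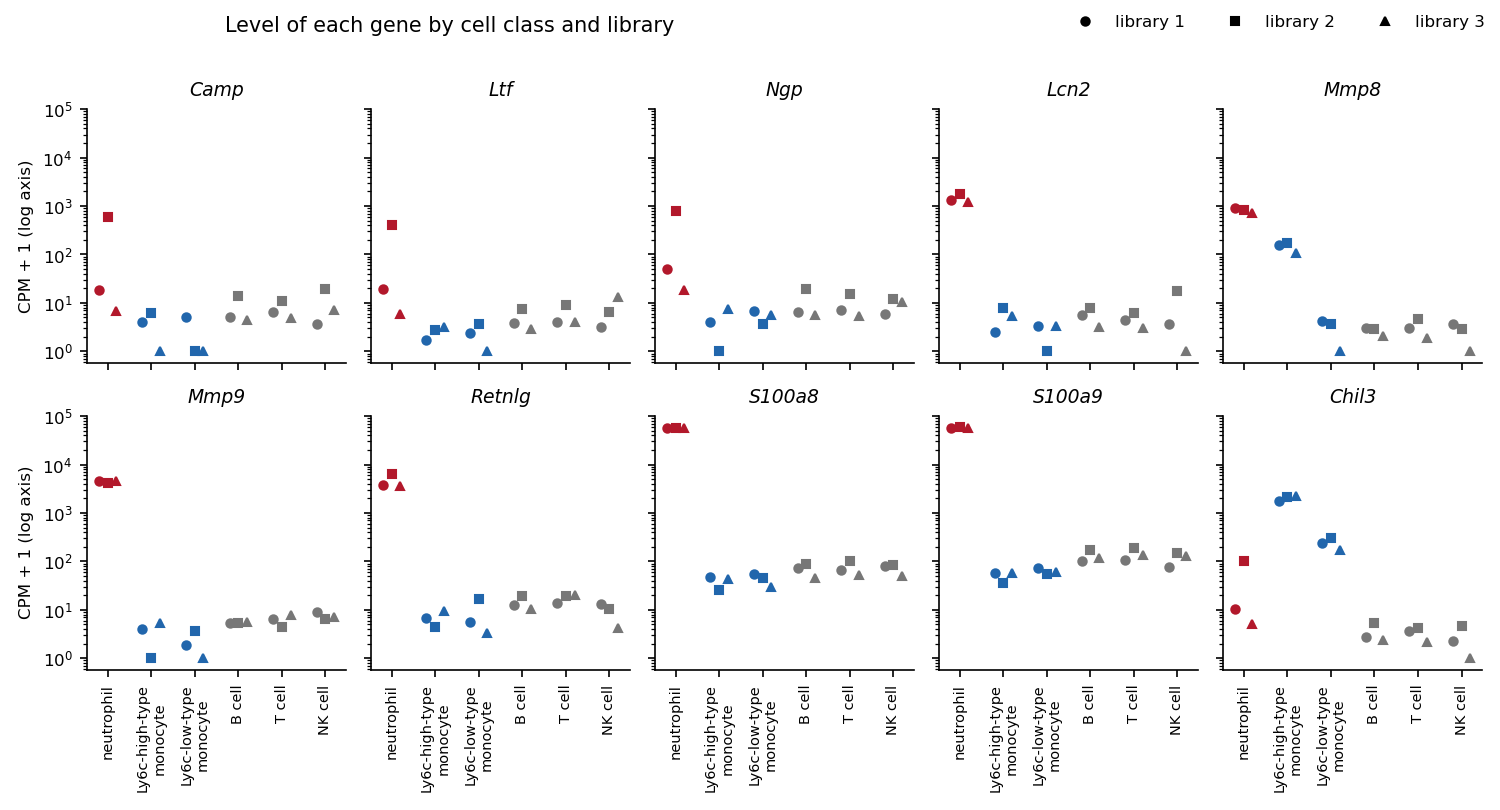
Level of each of the 10 genes as CPM + 1 on a log axis, by cell class (neutrophils in red, Ly6c-high-type and Ly6c-low-type monocytes in blue, lymphocytes in grey), with 1 point for each of the 3 libraries (circle, square, triangle). S100a8 lies at 55455 CPM or more in neutrophils of every library, Chil3 is highest in Ly6c-high-type monocytes, and library 2 stands apart for Camp, Ltf and Ngp in neutrophils.

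Neutrophils were then set against monocytes on UMIs summed per library and class, with edgeR's quasi-likelihood test, the library as a block and Benjamini-Hochberg adjustment over all 10469 genes tested. Of all genes, 34.5% were higher and 37.9% lower in neutrophils at an adjusted p under 0.05. Against that background, 8 of the 9 members that could be tested were higher in neutrophils and 1, Chil3, was lower; Mmp9 was not tested, since it made the gate. The log2 fold of neutrophils over monocytes was 11.32 ± 0.32 (SE, n = 3 libraries) for S100a8, with an adjusted p of 2.43e-30 in edgeR. It was 10.85 ± 0.31 for S100a9, 10.43 ± 0.27 for Retnlg and 9.97 ± 0.29 for Lcn2. Mmp8, at 4.50 ± 0.15 and an adjusted p of 3.78e-18 in edgeR, had a lower fold than those 4. Each of the 5 was higher in 3 of 3 libraries.

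Camp (5.91 ± 1.13), Ltf (6.63 ± 1.11) and Ngp (6.03 ± 0.85) had larger errors on the log2 fold, with adjusted p of 0.000617, 0.000241 and 5.96e-05 in edgeR. Without the 1 neutrophil with the most of these UMIs, an alternative chosen after seeing the data, the log2 folds were 3.45, 4.76 and 4.54 and the adjusted p 2.29e-09, 1.15e-11 and 7.15e-11 in edgeR. Leaving out library 1 gave 8.27 for Camp, 7.74 for Ltf and 7.76 for Ngp, and leaving out library 2 gave 3.26, 4.57 and 3.94, so the size of the 3 folds rests on library 2. The 3 genes were called higher without any 1 library, at an adjusted p of up to 0.00979 in edgeR. Chil3 had a log2 fold of -4.46 ± 0.44 with an adjusted p of 2.97e-06 in edgeR and was lower in 3 of 3 libraries. Its fold was -5.97 without that neutrophil. It was 0.08 with an adjusted p of 0.716 when the neutrophil gate took all cells passing it, monocyte gate or not, so the direction for Chil3 holds for cells of a single gate. The log2 scale depends on the library scaling: the median of all genes was -0.09 with TMM factors, -0.36 with RLE factors and -1.02 with plain totals, and 47.6%, 38.4% and 19.6% of the called genes were higher in neutrophils. The 9 members kept their direction and call under all 3 scalings.

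The other genes of the granule programme, in lists of 60 genes, went different ways in the same test. Of 8 genes of gelatinase granules and secretory vesicles, 7 were tested and 7 were higher in neutrophils, with a median log2 fold of 4.45 against -0.09 over all genes; under plain totals 6 of the 7 passed. Mmp25, a membrane-anchored metalloprotease, stood at 165 ± 11.9 CPM in neutrophils and 0.885 ± 1.08 CPM in monocytes (SD, n = 3 libraries), and Adam8, a sheddase, at 381 ± 14.9 CPM and 7.87 ± 5.85 CPM. Of 9 further specific granule genes, 7 were tested, 5 were higher and 1 lower. Chil1, a chitinase-like protein of specific granules, stood at 249 ± 39.3 CPM in neutrophils and 0.0938 ± 0.162 CPM in monocytes, and Itgb2l at 13.2 ± 7.66 CPM in neutrophils and 0 in monocytes. Lyz2, lysozyme, which monocytes also make, was lower, at 1465 ± 181 CPM in neutrophils and 10557 ± 1064 CPM in monocytes.

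Of 8 azurophil granule genes, 4 were tested, 1 was higher and 2 were lower. Over all neutrophils the libraries held 7 UMIs of Mpo, 8 of Elane, 3 of Ctsg (cathepsin G) and 1 of Ms4a3, a marker of granulocyte and monocyte progenitors. The 4 tested genes of the list held more, from 21 UMIs for Prtn3 up to 122 UMIs. Prtn3, proteinase 3, was lower in neutrophils, at 2.82 ± 0.470 CPM, than in monocytes, at 21.2 ± 15.1 CPM. Of 8 transcription factors linked to granule genes, 8 were tested, 5 were higher and 3 lower. Cebpe, the factor of the specific granule stage, stood at 71.8 ± 9.07 CPM in neutrophils and 4.68 ± 2.29 CPM in monocytes. Cebpa and Cebpb, which act in both lineages, were lower, with log2 folds of -1.36 and -0.85.

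Of 11 other S100 genes and calprotectin receptors, 8 were tested, 4 were higher and 4 lower, and the median log2 fold was 0.77 with TMM factors and -0.14 with plain totals. S100a11 stood at 7128 ± 335 CPM in neutrophils and 587 ± 64.8 CPM in monocytes. S100a4 lay the other way, at 7.07 ± 5.18 CPM in neutrophils and 3169 ± 229 CPM in monocytes, as did S100a10, at 13.4 ± 6.05 CPM and 496 ± 118 CPM. Ager, the receptor RAGE that binds S100 proteins, was higher in neutrophils, at 25.5 ± 4.98 CPM against 4.70 ± 1.47 CPM in monocytes. Of 8 genes of marrow release and ageing, 6 were tested outside the gate, 3 were higher and 2 lower; Cd24a, a surface glycoprotein, was at 1071 ± 6.02 CPM in neutrophils and 22.4 ± 9.61 CPM in monocytes. Of 8 cell cycle genes, 7 were tested, 0 were higher and 3 were lower in neutrophils.

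Monocytes were next set against B cells, which are not known to make these proteins and were used as the background level. Of all 10469 genes, 32.9% were higher and 37.9% lower in monocytes. Of the 9 members outside the neutrophil gate, 2 were higher in monocytes, 2 were lower and 5 did not pass. Mmp9 was not tested, since cells passing the neutrophil gate were removed from the monocytes; it stood at 1.69, 1.05 and 2.23 CPM in monocytes, against 4.38, 4.24 and 4.55 CPM in B cells. Mmp8 was higher, with a log2 fold of 5.57 ± 0.25 (SE, n = 3 libraries) and an adjusted p of 1.04e-15 in edgeR. Chil3 was higher, with a log2 fold of 9.22 ± 0.50 and an adjusted p of 1.12e-08 in edgeR. Both were higher in 3 of 3 libraries, and each kept that call under the 15 alternative settings tried.

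Retnlg (log2 fold -0.83 ± 0.31) and S100a9 (-0.88 ± 0.22) were lower in monocytes than in B cells, with adjusted p of 0.0149 and 0.000534 in edgeR. Without library 1 only S100a9 was still called, without library 2 neither was (adjusted p of 0.0808 for Retnlg and 0.0613 for S100a9 in edgeR), and with cells of 2 gates given to the larger gate only Retnlg was called. S100a8 did not pass at -0.46 ± 0.24, with an adjusted p of 0.079 in edgeR, and passed as lower under 6 of the alternatives, among them RLE factors, at -0.57, and plain totals, at -0.68. Camp, Ltf, Ngp and Lcn2 did not pass either. Camp rested on 16 UMIs over all monocytes and Ltf on 7. In library 3 no Camp UMI was found in monocytes, which at 3 counts allows up to 3.34 CPM for counting error alone. For these 7 members a level in monocytes above that in B cells was not detectable at this depth in cells of a single gate. CPM are shares of a class total, and the median monocyte had 5447.5, 6122 and 5065 UMIs against 3222, 3211 and 3080 in B cells. In UMIs per cell, S100a8 was at 0.235 ± 0.063 in monocytes and 0.235 ± 0.076 in B cells (SD, n = 3 libraries). Retnlg was at 0.037 ± 0.013 and 0.044 ± 0.016, and S100a9 at 0.321 ± 0.069 and 0.436 ± 0.115. The part of depth in the lower calls was not tested. With every cell that passed the monocyte gate kept, neutrophil gate or not, 6 of the 9 members were higher in monocytes and 0 lower, with log2 folds of 4.52 for S100a8, 3.61 for S100a9, 3.45 for Lcn2 and 3.30 for Retnlg.

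The 2 circulating monocyte types were told apart by F13a1, Fn1 and Ccr2 against Ace, Treml4 and Cd300e. Ly6c-high-type cells, the classical monocytes that enter inflamed tissue, numbered 167, 81 and 71, and Ly6c-low-type cells, which patrol vessels, 433, 73 and 97. With cells of 2 gates given to the larger gate, 354, 158 and 121 cells were of the Ly6c-high type. Mmp8 stood at 154, 170 and 107 CPM in the Ly6c-high type, against 3.19, 2.65 and 0 CPM in the Ly6c-low type. Chil3 stood at 1766, 2132 and 2218 CPM in the Ly6c-high type, against 234, 305 and 170 CPM in the Ly6c-low type. The types did not overlap for either gene. In edgeR's test on these types alone, 16.7% of 7070 genes were higher and 15.3% lower in the Ly6c-high type. Of the 4 members past the filter on low counts, 2 were higher: Mmp8, with a log2 fold of 5.72 ± 0.30 and an adjusted p of 2.21e-11, and Chil3, with 3.07 ± 0.16 and an adjusted p of 5.24e-07, both higher in 3 of 3 libraries. With every cell passing the monocyte gate kept, the Mmp8 fold was 2.47, with an adjusted p of 1.71e-08 in edgeR. A list of 4 platelet markers summed to 4.42 to 5467 CPM in the Ly6c-high type and to 4.10 to 69.0 CPM in the Ly6c-low type, with none and 1 of the 4 at 0, and the part of platelets in these results was not tested.

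S100a8 did not pass between the monocyte types (log2 fold -0.23 ± 0.26, adjusted p = 0.543 in edgeR), and neither did S100a9 (-0.39 ± 0.20, adjusted p = 0.164). S100a8 stood at 46.4, 24.2 and 42.7 CPM in the Ly6c-high type, against 55.1, 45.1 and 27.9 CPM in the Ly6c-low type, and the types overlapped. This result depended on which cells counted as monocytes. When cells of 2 gates went to the larger gate, an alternative chosen after seeing the data, the S100a8 log2 fold was 0.92 with an adjusted p of 0.000159 in edgeR. The types still overlapped there, at 27.9 to 131 CPM in the Ly6c-high type and 28.4 to 54.9 CPM in the Ly6c-low type. With the monocyte gate taking all cells passing it, the fold was -3.88 with an adjusted p of 0.0443 in edgeR.

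Among other granule genes of monocytes was Cd177, a surface protein best known from neutrophil specific granules. It stood at 415 ± 28.8 CPM in the Ly6c-high type and 35.2 ± 10.9 CPM in the Ly6c-low type (SD, n = 3 libraries), higher in edgeR's test. In neutrophils Cd177 stood at 110, 180 and 86.4 CPM. Prtn3 was at 39.3 ± 20.9 CPM in the Ly6c-high type and 0 in the Ly6c-low type, and Pglyrp1, a peptidoglycan-binding protein, lay the other way, at 59.2 ± 4.77 CPM and 964 ± 94.2 CPM. Of the 9 further specific granule genes 4 were tested, 3 higher and 1 lower in the Ly6c-high type, and of the azurophil list 3 were tested and 3 were higher.

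**Figure D2:**
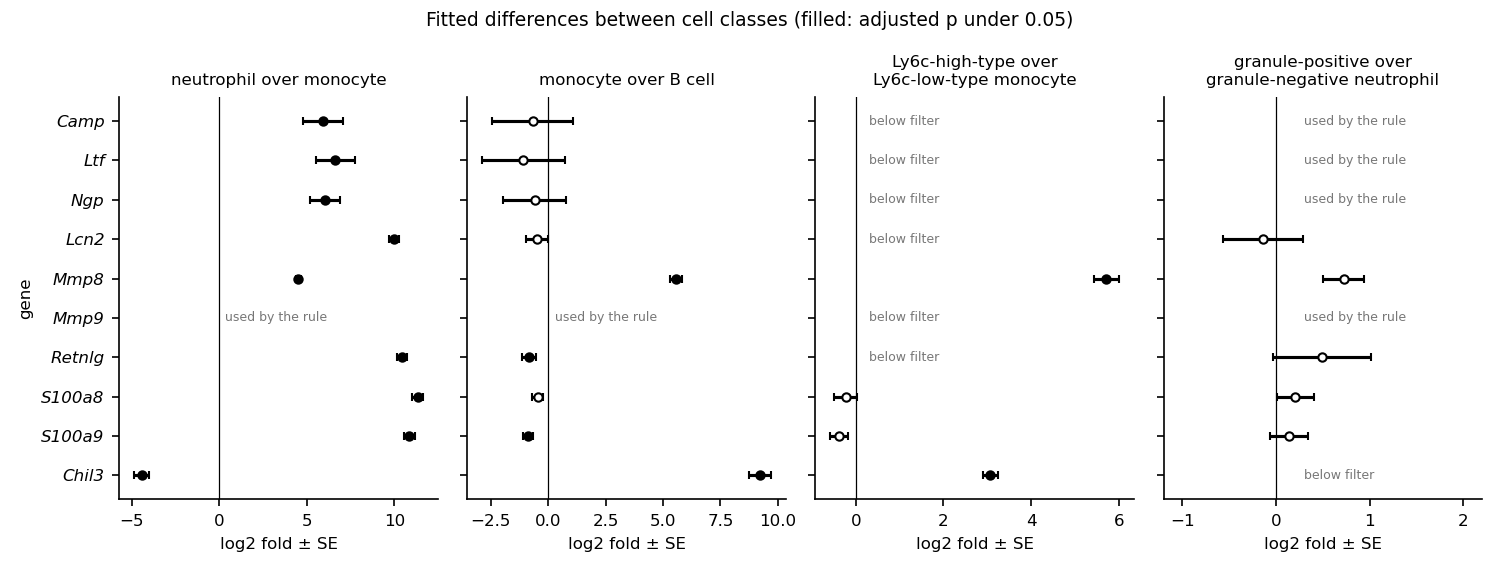
Fitted log2 fold ± SE of each member in the 4 comparisons, filled where the adjusted p in edgeR was under 0.05; members that the rule for the cells used and members below the filter on low counts have no point. Mmp8 and Chil3 lie right of 0 in both monocyte panels, and no member passes in the panel of granule-positive over granule-negative neutrophils.

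Between neutrophils, each cell was thinned to 1500 UMIs and shallower cells were left out, which kept 1656, 440 and 439 cells. S100a8 was then found in 99.8% ± 0.247 of neutrophils (mean ± SD, n = 3 libraries), against 9.00% ± 2.61 of B cells thinned alike. S100a9 was found in 99.6% ± 0.228 of neutrophils, against 16.1% ± 3.62 of B cells. Mmp9, in the gate, was found in 98.6% ± 0.222, and Retnlg in 85.6% of neutrophils (82.5% to 91.1% by library) against 2.12% ± 0.964 of B cells. Mmp8 and Lcn2 split the neutrophils, at 53.7% ± 5.70 and 52.2% ± 1.11, against 0.271% ± 0.208 and 0.637% ± 0.458 of B cells. On average over libraries these 6 members were each in over 50% of neutrophils; Mmp8 was at 47.4% in library 3. With cells thinned to 1000 UMIs, 4 members were over 50%, and Mmp8 and Lcn2 were at 44.1% and 45.3%. Without thinning, the shares were 65.8% ± 6.08 for Mmp8 and 60.3% ± 4.22 for Lcn2. The share of a gene also depends on how well its probes work.

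The other 4 members were rare. Ngp was found in 3.18% ± 0.998 of neutrophils, against 1.15% ± 0.729 of B cells. Camp was found in 1.87% ± 1.40, against 0.870% ± 0.687, Ltf in 1.69% ± 1.71, against 0.616% ± 0.574, and Chil3 in 1.00% ± 0.569, against 0.361% ± 0.238. For each of the 4, neutrophils were above B cells in every library, but not above every lymphocyte class: in library 3 Ltf was found in 0.456% of neutrophils (2 of 439) and in 6 of 1201 T cells, a slightly higher share. By level, Camp and Ltf stood at 5.65 and 4.85 CPM in neutrophils of library 3, against 6.26 and 12.5 CPM in its NK cells, which rest on 2 and 4 UMIs. For Camp and Ltf the gap between the means was smaller than the SD over neutrophil libraries, and for Ngp and Chil3 it was larger. Without thinning the neutrophil shares were 5.23% ± 1.93 for Ngp, 2.52% ± 1.55 for Camp, 2.76% ± 1.90 for Ltf and 1.65% ± 0.644 for Chil3.

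**Figure D3:**
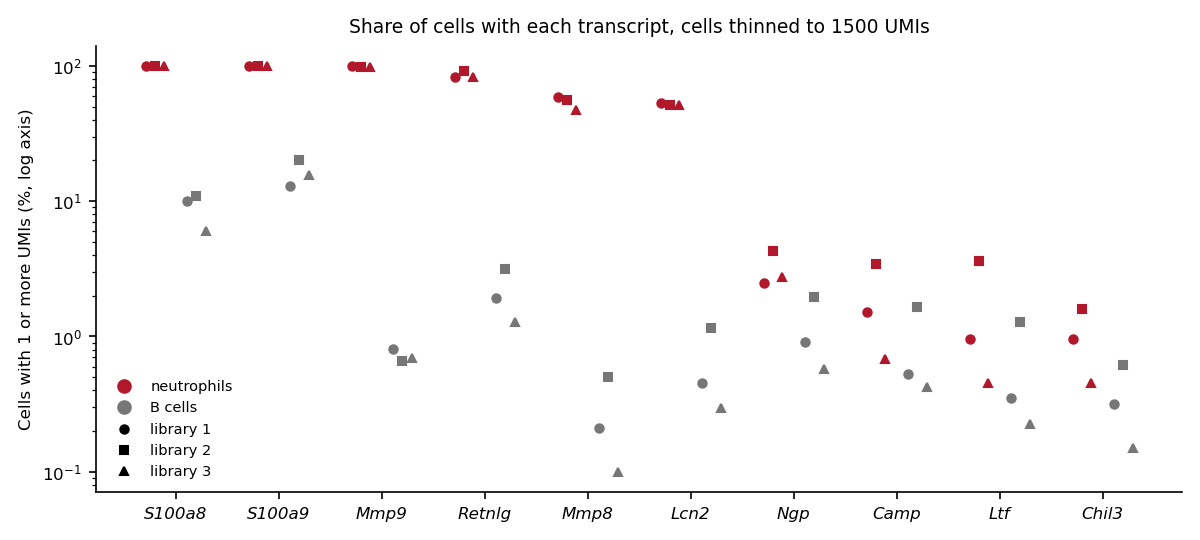
Share of cells with at least 1 UMI of each gene after thinning every cell to 1500 UMIs, on a log axis, for neutrophils (red, left) and B cells (grey, right), with 1 point for each of the 3 libraries. The 6 common genes lie at 47.4% or more in neutrophils of every library, and Ngp, Camp, Ltf and Chil3 lie under 5%, with the B cell points close below them.

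The signal of Camp and its partners in lymphocytes was not in the ratio that neutrophils carried. Per 1000 S100a9 UMIs, neutrophils other than the 1 cell of library 2 held 0.313, 0.513 and 0.0976 Camp UMIs, against 46.9, 69.5 and 29.9 in B, T and NK cells together. With that cell, library 2 stood at 10.1. For Lcn2 the same quantity was 23.4, 22.8 and 21.1 in neutrophils, against 37.1, 38.9 and 17.4 in lymphocytes. For Mmp8 it was 16.2, 14.6 and 12.3 in neutrophils, against 20.5, 14.2 and 8.03 in lymphocytes. For both genes the direction differed between libraries: Lcn2 was higher in lymphocytes in libraries 1 and 2, and Mmp8 in library 1 alone. Camp was far more frequent beside S100a9 in lymphocytes than in neutrophils, in every library. So was Chil3, at 21.9, 22.6 and 10.7 in lymphocytes against 0.164, 0.202 and 0.0697 in neutrophils without that cell. Ltf and Ngp shifted the same way. S100a8 was less frequent in lymphocytes, at 683, 523 and 387 against 1005, 941 and 992. Mmp9 was too, at 51.0, 23.4 and 41.9 against 80.9, 71.2 and 78.8. Retnlg was higher in lymphocytes in libraries 1 and 3 and lower in library 2. The source of the Camp UMIs in lymphocytes was not tested.

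The spread of each member between neutrophils is given as a description and not compared between genes, since it depends on the level: the mean over thinned cells was 80.9 UMIs for S100a8, 6.56 for Mmp9, 6.43 for Retnlg, 1.79 for Lcn2 and 1.13 for Mmp8. In thinned cells the coefficient of variation was 0.537 ± 0.0444 for S100a8, 0.538 ± 0.0518 for S100a9 and 0.530 ± 0.0405 for Mmp9 (mean ± SD, n = 3 libraries). It was 1.20 ± 0.0950 for Retnlg, 1.32 ± 0.0830 for Mmp8 and 1.75 ± 0.310 for Lcn2. The variance over the mean, which is 1 for counting error alone, was 23.3 ± 2.86 for S100a8, 9.09 ± 1.51 for Retnlg and 5.62 ± 2.29 for Lcn2, and 1.95 ± 0.140 for Mmp8 and 1.84 ± 0.180 for Mmp9. The 5% of cells with the most held 32.3% ± 3.73 of Lcn2, 24.1% ± 1.91 of Retnlg and 24.0% ± 1.85 of Mmp8 UMIs, and 11.5% ± 0.860 of Mmp9 and 10.9% ± 0.649 of S100a9 UMIs. Raw S100a8 counts ran from a 10th percentile of 46, 27.6 and 39 UMIs to a 90th percentile of 286, 282 and 288 UMIs, around medians of 145, 127 and 137.5 UMIs.

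S100a8 and S100a9 counts went together from cell to cell, with a Spearman rho of 0.86 ± 0.01 within libraries (mean ± SD over 3 libraries of 1656, 440 and 439 thinned cells). Retnlg had a rho of 0.39 ± 0.04 with S100a9 and 0.35 ± 0.03 with S100a8. Lcn2 and Mmp8 had 0.28 ± 0.03 and 0.23 ± 0.02 with S100a9, and 0.12 ± 0.07 with each other. Mmp9 had 0.06 ± 0.06 with S100a9 and 0.00 ± 0.02 with Lcn2. Cells of a library share its preparation, and thinning to a fixed total ties the counts of abundant genes to each other, so these values describe the cells and carry no test. Weak values among sparse genes, such as those of Camp, Ltf, Ngp and Chil3 with the abundant genes are not read as a pattern.

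**Figure D4:**
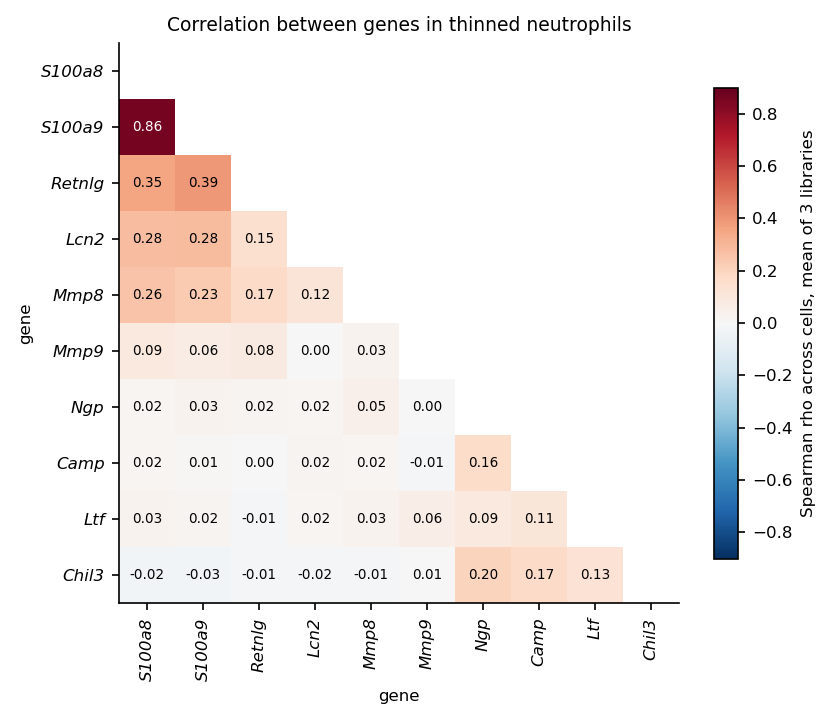
Spearman rho between each pair of members across thinned neutrophils, as the mean over 3 libraries, with red for positive and blue for negative values. The S100a8 and S100a9 cell is at 0.86, a group of S100a8, S100a9, Retnlg, Lcn2 and Mmp8 lies between 0.12 and 0.39 in its other pairs, and Mmp9 stays under 0.10 with every member.

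Among the abundant genes, detection of 2 genes in the same cell was close to the product of their single shares. Of neutrophils with Lcn2, 60.1% ± 3.72 also had Mmp8 (mean ± SD, n = 3 libraries; in 1 library Mmp8 was the rarer and the share is of the rarer gene), 1.09 ± 0.03 times the product of the single shares. Of those with Lcn2, 88.0% ± 5.07 had Retnlg, 1.03 ± 0.01 times the product. Of those with Mmp8, 89.2% had Retnlg, 1.04 ± 0.02 times the product. Among the rare genes the excess was larger but rested on few cells. Ngp and Chil3 were found together in 7 cells where the product of shares gave 0.753, Camp and Ngp in 10 cells where it gave 1.35, Camp and Chil3 in 7 where it gave 0.494, and Camp and Ltf in 6 where it gave 0.801. Of these 4 pairs, Ngp with Chil3 was above the product in every library, at 12.2 ± 6.68 times; the other 3 fell to 0 cells in at least 1 library. Of the 45 pairs, 13 were above the product in every library, 24 without library 3, and 6 with cells thinned to 2500 UMIs. With a gene found in nearly every neutrophil, such as S100a9 or the gate gene Mmp9, the ratio cannot rise far above 1. Camp with Mmp9, for example, counted as above the product at 1.01 to 1.02 times. For such pairs the count says little about co-detection.

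Few neutrophils held more than single UMIs of Camp, Ltf and Ngp. Of neutrophils, 1.72%, 4.05% and 1.07% had 2 or more raw UMIs over the 3 genes, against 0.854%, 2.43% and 0.511% of B cells, 1.22%, 2.51% and 0.818% of T cells and 0.606%, 2.10% and 2.22% of NK cells. In library 3 the NK cell share, of 2 cells among 90, was above that of neutrophils. With 20 or more there were 2, 3 and 0 neutrophils, against 0, 0 and 0 B cells, and the highest B cell count was 12 UMIs. The neutrophil with the most, in library 2, had 15381 UMIs in all, of which 738 were Camp, 483 Ltf and 863 Ngp. It also held 564 Lcn2, 115 Chil3, 2361 S100a8 and 2372 S100a9 UMIs, with 58 of Cd177, 42 of Ly6g and 11 of Cebpe, but 4 of Retnlg and 12 of Mmp8. The median neutrophil of that library had 10 Retnlg UMIs at 2732 UMIs in all. Scrublet did not mark the first cell as a doublet, and whether it holds more than 1 cell was not tested.

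The next cells down the series differed from it. The neutrophil with the second highest count, in library 1, held 50 Camp, 55 Ltf and 102 Ngp UMIs with 184 of Retnlg and 37 of Mmp8 out of 7456. The following one, in library 2, held 15 Camp, 29 Ltf and 36 Ngp UMIs with 226 of Retnlg and 54 of Mmp8 out of 8813. A cell of library 2 with 51 Ngp UMIs had 1 of Camp and 0 of Ltf, and a cell of library 1 with 34 Ngp UMIs had 0 of both, while they held 246 and 250 Retnlg UMIs. Further down, 3 cells of library 2 had 12, 11 and 6 of these UMIs with 29, 8 and 1 of Retnlg and 37, 52 and 46 of Csf3r. Ngp was present without its partners in some cells. In the 11 neutrophils with 5 or more of these UMIs no cell had Camp without Ngp. Ngp is part of the sum that chose those 11 cells, so this gives no order of the genes. Of 43 thinned neutrophils with Camp over the 3 libraries, 10 also had Ngp (2, 8 and 0 by library). None of the 11 held a UMI of Mpo, Elane, Mki67 or Top2a, the last 2 of which mark dividing cells. Fcnb, ficolin B, a gene of earlier granulocytes, was at 2 UMIs in the first cell and 1 in the second.

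**Figure D5:**
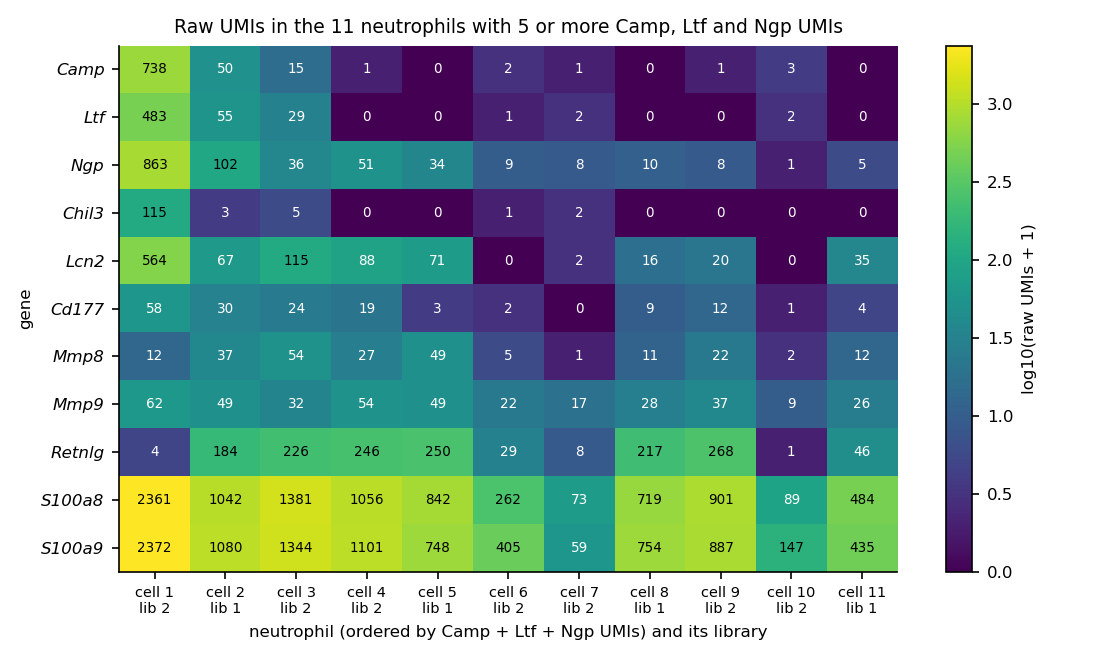
Raw UMIs of the members and of Cd177 in the 11 neutrophils with 5 or more Camp, Ltf and Ngp UMIs, 1 column per cell with its library, coloured by log10(UMIs + 1). Every gene shown except Mmp8 and Retnlg is highest in the first cell, which also has the most UMIs in all (15381). Its Retnlg count of 4 is below that of 9 of the other 10 cells.

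Neutrophils with 2 or more Camp, Ltf and Ngp UMIs were set against neutrophils with none, matched 1 to 1 within a library on total UMIs to within 10%. This gave 29, 16 and 5 pairs, and 3 of the 19 such cells of library 2, the first cell above among them, had no partner of their depth and were left out. Of 1001 genes tested in edgeR, 0.4% were higher and 0% lower in the granule-positive cells at an adjusted p under 0.05, and 37 genes had an unadjusted p under 0.05; DESeq2 called 0. Of the 5 members that could be tested, 0 passed; Camp, Ltf, Ngp and Mmp9 made the split or the gate and Chil3 was below the filter. Retnlg stood at 8788 ± 5962 CPM in granule-positive and 5833 ± 3785 CPM in granule-negative neutrophils (SD, n = 3 libraries), and Mmp8 at 1266 ± 701 CPM in granule-positive and 820 ± 279 CPM in granule-negative ones. Both were higher in 2 of 3 libraries, and the groups overlapped within these errors. The log2 folds were 0.72 ± 0.22 for Mmp8 (adjusted p = 0.581 in edgeR), 0.49 ± 0.52 for Retnlg, 0.21 ± 0.20 for S100a8, 0.14 ± 0.20 for S100a9 and -0.14 ± 0.42 for Lcn2. Without library 3, which gave 5 pairs, Mmp8 (0.81, adjusted p = 0.0169) and Retnlg (0.97, adjusted p = 0.00498) passed as higher in edgeR.

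Outside the genes of the split, 2 genes passed. Cd177 stood at 398 ± 204 CPM in granule-positive and 59.5 ± 25.2 CPM in granule-negative neutrophils, a log2 fold of 3.25 ± 0.54 with an adjusted p of 0.00825 in edgeR, higher in 3 of 3 libraries and resting on 83 and 8 UMIs. Of the 83, 30 came from 1 cell of library 1, the neutrophil with the second highest Camp, Ltf and Ngp count. DESeq2 called 0 genes, and with cells of 2 gates given to the larger gate 0 of 4 tested genes of the list that holds Cd177 passed. Adpgk, an ADP-dependent glucokinase, stood at 344 ± 131 CPM and 48.4 ± 59.4 CPM, with a log2 fold of 2.85 ± 0.55 and an adjusted p of 0.03 in edgeR, on 68 and 9 UMIs. Of the other lists, 0 of 7 tested gelatinase and secretory vesicle genes, 0 of 3 transcription factors, 0 of 2 S100 genes and 0 of 5 release and ageing genes passed. No azurophil or cell cycle gene was past the filter.

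Over the 18 sums of 6 classes in 3 libraries, the genes outside the members whose log2(CPM + 1) followed a member most closely were found by Pearson's r, as a description. S100a9 was followed by Ankrd22 (0.992) and Chil1 (0.990), S100a8 by Lhx1 (0.991) and Sycp2 (0.990), Mmp9 by Sycp2 (0.974) and Dhrs9 (0.972). Mmp8 was followed by Fpr2, a formyl peptide receptor (0.980), Retnlg by Chil1 (0.966), and Lcn2 by Amer2 (0.946). Chil3 was followed by genes of monocytes, Clec4a1 (0.911) and Treml4 (0.901), the second of which is in the monocyte gate. For Camp, Ltf and Ngp the closest genes reached 0.679 (Ctse), 0.696 (Mxd1) and 0.798 (Ifit1bl2). The sums of a class share its cells' lineage, so a high r mostly says that 2 genes are found in the same class.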

How the data were processed

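The matrices deposited by the authors hold unnormalized UMI counts, made with Cell Ranger 7.1.0 per the file headers; the other files hold barcodes and gene names. For the genome build and the probe set the sources used here give nothing. Cells needed 200 genes. Scrublet (scanpy 1.11.5) marked 667, 116 and 138 doublets, which were left out. Classes are gates of 5 or more raw UMIs over fixed genes; cells passing several leukocyte gates were set aside. Raw counts were summed per library and class. Classes with at least 20 cells in every library (6) shared 1 fit in edgeR 4.0.16 (TMM, filterByExpr, robust quasi-likelihood F test, library as a block, adjusted p under 0.05); the monocyte types and the granule split had fits of their own. SE is the log2 fold over the root of F. The code was tested on simulated data. CPM were computed on the UMIs of a class, with no TMM factor. Intervals cover counting error only. DESeq2 1.42.0 was an alternative.

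The members, gene lists and markers were chosen with earlier results of these data known. Listed genes were named by rule: the 2 highest and 2 lowest folds per list among those past the threshold at 10 CPM or more (not all are printed, and 1 gene is not reported here), and in the granule split the 8 highest and lowest outside the lists at 20 CPM or more. For likeness the 3 closest genes at 20 CPM or more in neutrophils were taken. Library numbers pair the classes because they come from the same library. Promoter sequences are from RefSeq, GRCm38.p6. The median B cell had 3222, 3211 and 3080 UMIs and the median neutrophil 2799, 2732 and 2650.5.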

Additional observations from a re-analysis of the deposited data

How the results depend on the processing

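In neutrophils against monocytes, the 8 higher members kept direction and call under the 15 alternatives, and Chil3 under 14. With plain library totals, 1610 genes were higher and 6587 lower. With cells of several gates kept, 0 members were lower (Chil3 0.081 on the log2 scale). For monocytes against B cells that setting gave 6 members higher and 0 lower, with log2 folds of 3.45 for Lcn2, 3.30 for Retnlg, 4.52 for S100a8 and 3.61 for S100a9; 1 member was lower with gates at 3 UMIs. Giving cells of 2 gates to the larger gate, like leaving out the 1 cell richest in granule UMIs, was chosen after seeing the data; it left 1 member lower, with 0.27 for Lcn2 and 0.0076 for S100a8. Leaving out each library gave 0 to 3 members lower, and -0.85 to 0.035 for Lcn2. Between monocyte types, DESeq2 called 543 genes higher and 524 lower; 5 members were lower with cells of several gates kept and 2 with gates at 8 UMIs. There S100a8 was at 0.20 with gates at 3 UMIs, and with the larger gate at 0.92, and S100a9 at 0.40. The granule split was the least stable comparison by count of calls. Genes higher numbered 0 with DESeq2, 7 with no filter, 1 and 2 with gates at 3 and 8 UMIs, 2 with the larger gate, 15 with cells of several gates kept (11 lower, 1 member higher) and 16 with no matching (1 lower, 1 member higher); a split at 1 UMI gave 3 lower. Its Lcn2 log2 fold, -0.14, was 1.71 with cells of several gates kept, 0.42 with gates at 3 UMIs, 0.067 with the split at 1 UMI and 1.94 with no matching. Leaving out each library gave 1 to 10 genes higher, 0 to 1 lower and 0 to 2 members higher, with log2 folds of -0.87 to 0.29 for Lcn2 (0.15 without library 3), -0.070 to 0.97 for Retnlg, -0.075 to 0.38 for S100a8 and -0.15 to 0.38 for S100a9. Without the library block that pairs the classes, the Lcn2 fold in the granule split was 0.034, and 1 member in place of 2 was lower in monocytes than in B cells. A split at 5 UMIs was not run, since library 3 held 0 such cells. Pairs above the product of shares numbered 6 after thinning to 2500 UMIs, 25 at 2 or more UMIs per cell and 15 to 24 without 1 library. Pairs with a gene found in nearly every cell can enter that count at ratios close to 1. Members with a variance over mean above 2 in every library numbered 4, and 4 to 8 without 1 library. Where results differed, the cause was not tested. Over the combinations of a single-member fold or value with a setting, 467 kept direction and call or stayed within the replicate spread, 27 values moved further, 21 were reversed, 14 passed the threshold only under the alternative and 6 only in the main setting.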
